A study of Brassica rapa subsp. pekinensis with 6 samples.

Results

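Among the genes read in flower buds of Chinese cabbage, Brassica rapa subsp. pekinensis, 142 that were abundant in fertile buds stood 10- to 100-fold lower in sterile buds and were still read in every sterile library. They were chosen from 41019 identifiers beginning with Bra, out of 43354 identifiers counted in all. A gene was taken when its mean raw CPM (its counts per 1000000 counts of the library) was at least 50 over the fertile libraries and its sterile mean was above 1% and at most 10% of that. The choice therefore used the level in both groups, and the size and direction of the fall below are a description of the chosen genes, with no test.

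The study compared 3 libraries of sterile buds with 3 libraries of fertile buds, all from the male sterile line AB01, whose sterility is inherited through multiple alleles. All plants were grown in a greenhouse from vernalised seed, and the labels name no treatment. The series' design text calls the replicates biological. The labels give the tissue as bud and the genotype as sterile or fertile, and they state neither the age of the plants, the size or stage of the buds, nor whether buds of several plants were pooled. Sterile libraries held 31893913, 32313032 and 33615379 counts, and fertile libraries held 27637426, 28255637 and 35564895.

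Pollen forms inside the anther, where an inner cell layer, the tapetum, feeds the developing microspores and supplies material for the pollen wall. A large set of plant genes is transcribed mainly in the tapetum, in microspores or in maturing pollen, so buds without functional pollen are commonly compared with fertile sister buds to find such genes. Flower buds also contain sepals, petals and pistils, which do not make pollen. In whole buds, fewer cells of a type and less RNA per cell cannot be told apart. The identifiers of these 142 genes could not be paired with gene names here, so the genes are given by identifier and no function is assigned, and the bud label could not be checked against marker genes of its tissues.

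Across the 142 genes the sterile level ran from 0.651 to 153.5 raw CPM, with a median of 4.78, against 50.6 to 5238 raw CPM in fertile buds, with a median of 117.0. The median gene stood at 3.45% of its fertile level, a 28.9-fold reduction, and the quartiles were 2.18% and 5.84%. Every sterile library lay below every fertile library for all 142. That pattern was found for 21.1% of the 33150 genes tested, and for the chosen genes the rule nearly forces it. In sterile buds 36 of the genes stood at 10 raw CPM or more, 97 between 1 and 10, and 9 below 1. In fertile buds 7 stood above 1000 raw CPM, 83 between 100 and 1000, and 52 below 100.

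**Figure D1:**
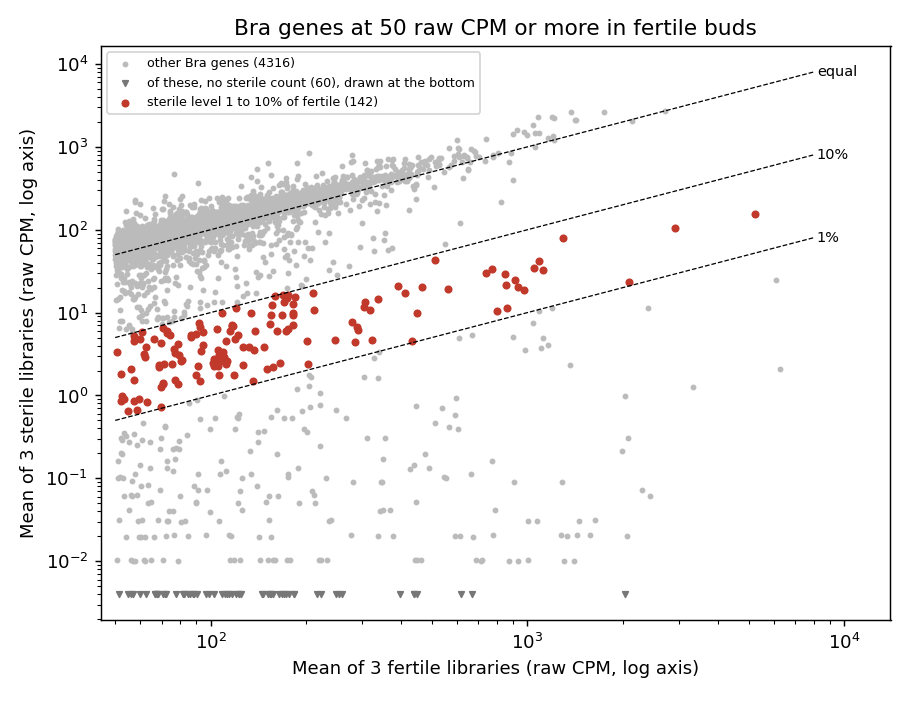
Mean raw CPM in sterile libraries (vertical, log axis) against mean raw CPM in fertile libraries (horizontal, log axis) for the 4458 Bra genes at 50 raw CPM or more in fertile buds. The 142 red points lie between the 1% and 10% lines, below the dense band around equality and above 290 genes at or under the 1% line, 60 of which had no sterile count and are drawn at the bottom.

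The range is part of a continuous spread of reductions and not a separate group, as the plot of sterile against fertile means shows. Of the 4458 Bra genes at 50 raw CPM or more in fertile buds, the 142 made up 3.19%. Below them lay 290 genes at 1% or less of the fertile level, and above them 188 genes at 10% to 50%. On equal steps of a log scale, 55 genes stood at 0.316% to 1% of the fertile level, 60 at 1% to 3.16%, 82 at 3.16% to 10%, and 109 at 10% to 31.6%. The count per step thus rose through the range without a gap at either threshold.

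Together the 142 genes took 0.143% ± 0.00952 (SD, n = 3) of the counts of sterile libraries and 4.05% ± 0.0146 (SD, n = 3) of those of fertile libraries. Their summed sterile level was 3.53% of their summed fertile level, close to the median of the single genes. The 8 most abundant in fertile buds supplied 34.5%, 33.1% and 35.1% of the members' counts in the sterile libraries, and 38.8%, 39.4% and 38.7% in the fertile libraries. The median sterile level was 3.42% of fertile in the 48 members at 50.6 to 92.6 raw CPM in fertile buds, 3.35% in the 47 at 92.8 to 168.8, and 3.48% in the 47 at 170.4 or more. The rule limits every member to the same 1% to 10%, so these medians describe the members alone and say nothing of how the reduction goes with level in other genes.

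Bra021109 led the set by raw CPM, a scale not corrected for length, and ranked 3 among all Bra genes in fertile buds. It had 154.3, 144.5 and 161.7 raw CPM in sterile libraries, against 5212, 5274 and 5229 raw CPM in fertile libraries. Even at 2.93% of the fertile level it also led the 142 by raw CPM in sterile buds, at rank 1040 of all Bra genes. Its fitted log2 fold change of sterile over fertile was -5.40 ± 0.06, where the error is the SE from the spread of log2 CPM among libraries. Fitted log2 fold changes here and below use TMM scaling of the libraries, while percentages of the fertile level use raw CPM. The fitted falls are therefore larger than the percentages give. With library size alone, the value for Bra021109 was -5.09.

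Bra038907 had 113.3, 87.6 and 115.4 raw CPM in sterile libraries, against 2967, 2977 and 2797 in fertile libraries. The second sterile library was the low one, and the log2 fold change was -5.09 ± 0.14 (SE). Bra017861 was further reduced, with 22.3, 20.2 and 27.6 raw CPM in sterile libraries, against 2191, 2060 and 2017 in fertile libraries. At 1.12% of its fertile raw CPM it lay just inside the lower limit of the range. Of the 8 most abundant members it had the deepest reduction (log2 fold change -6.79 ± 0.14, SE). That fitted value, on TMM scaling, is a fall of more than 100-fold, and library size alone gave -6.48.

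Bra040627 was the best retained of the 8, at 6.16% of its fertile level. Its values were 78.1, 74.0 and 86.4 raw CPM in sterile libraries and 1232, 1328 and 1313 in fertile libraries, a log2 fold change of -4.33 ± 0.08 (SE). Bra038343 differed most among sterile libraries of these 8 genes, with 41.9, 31.4 and 52.0 raw CPM, against 1029, 1064 and 1168 raw CPM in fertile libraries. Its coefficient of variation (CV, the SD as a percentage of the mean) was 24.6% among sterile libraries and 6.63% among fertile ones.

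The other 3 of the 8 stood near 1000 raw CPM in fertile buds. Bra026541 had 33.5, 30.7 and 33.6 raw CPM in sterile libraries, against 1085, 1116 and 1159 in fertile libraries. Bra034559 had 32.95, 35.1 and 35.9 raw CPM in sterile libraries, against 1037, 1025 and 1082 in fertile libraries. They kept 2.91% and 3.31% of their fertile levels. Bra024450 kept 1.90%, with 18.7, 16.6 and 20.4 raw CPM in sterile libraries and 961.7, 1031 and 929.7 in fertile libraries.

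**Figure D2:**
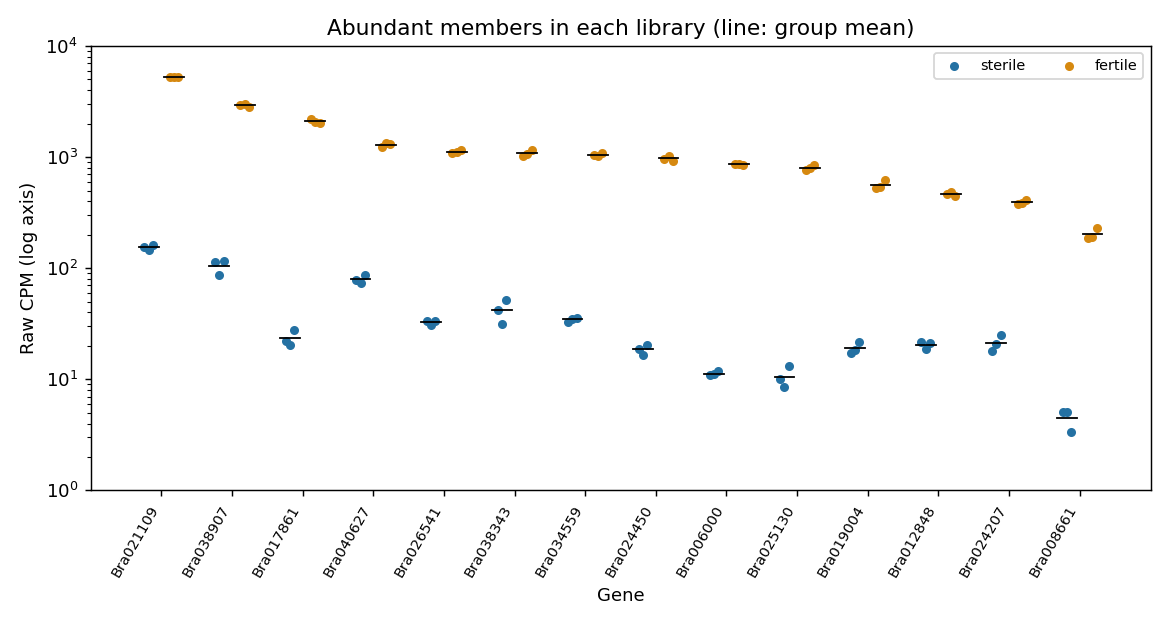
Raw CPM (log axis) of the 14 members most abundant in fertile buds per library or per length, one point per library, sterile left of fertile, with a line at each group's mean. All sterile points lie far below the fertile points of the same gene, and the sterile points are the more scattered for most genes, as in Bra038343 (31.4 to 52.0 raw CPM in sterile libraries, 1029 to 1168 in fertile libraries).

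Levels of different genes can be compared only per length. RPKM (counts per 1000 nt of gene model and per 1000000 counts of the library) was used for 141 of the 142. The remaining member, Bra002004, has repeated entries among the RPKM values and was left out there. Its raw CPM was 11.4, 10.5 and 13.1 in sterile libraries and 311.1, 294.0 and 307.9 in fertile libraries. Over the 141, mean RPKM ran from 0.218 to 292.8 in sterile buds and from 14.7 to 8094 in fertile buds.

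Per length, the order of the abundant members changed. Bra038907, with a coding length of 360 nt, led with 314.6, 243.4 and 320.5 RPKM in sterile libraries, against 8241, 8271 and 7770 RPKM in fertile libraries. Bra040627, of 288 nt, followed with 271.1, 256.9 and 300.1 RPKM in sterile libraries and 4279, 4610 and 4560 in fertile libraries. Bra021109, of 2469 nt, which led by raw CPM, was in place 4 per length, at 62.5, 58.5 and 65.5 RPKM in sterile libraries and 2111, 2136 and 2118 in fertile libraries. Of the 8 genes leading by raw CPM in fertile buds, 5 were among the 8 leading per length, and Spearman's rho between the fertile orders was 0.70 across 141 genes.

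Several short genes ranked higher once length was taken into account. Bra019004, of 360 nt, had a mean of 53.3 RPKM in sterile buds and 1563 RPKM in fertile buds. Bra012848, also of 360 nt, had a mean of 57.1 RPKM in sterile buds and 1295 RPKM in fertile buds. Bra008661, the shortest member at 198 nt, had 25.7, 25.6 and 16.8 RPKM in sterile libraries and 934.9, 963.1 and 1155 in fertile libraries. The library that stood apart was the third in both groups, low among the sterile and high among the fertile. Bra025130 of 606 nt, Bra024207 of 426 nt and Bra006000 of 1059 nt were the other members named for their level per length, with means of 17.4, 49.6 and 10.6 RPKM in sterile buds and 1325, 918.2 and 812.2 RPKM in fertile buds. Of the 14 leading members per length, 8 were shorter than 600 nt.

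**Figure D3:**
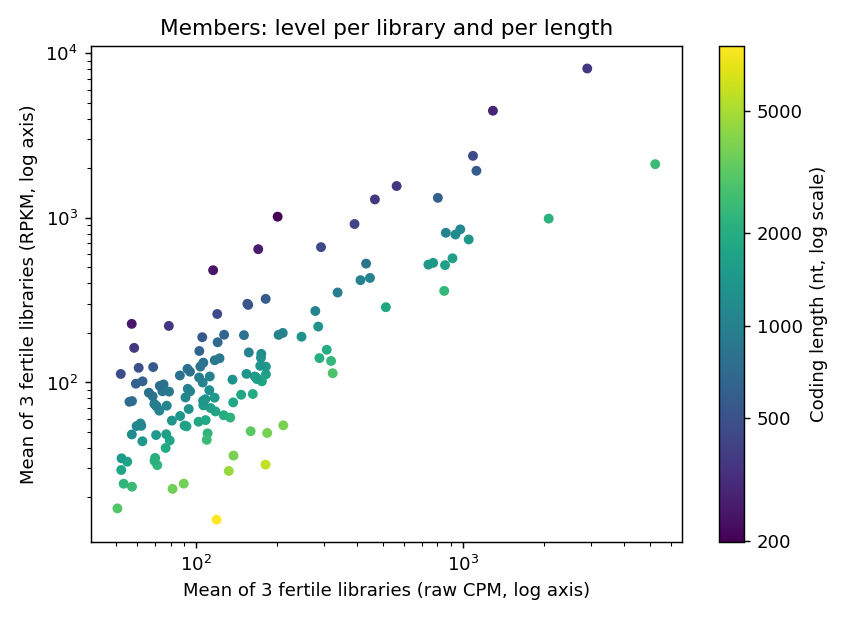
Mean fertile RPKM (vertical, log axis) against mean fertile raw CPM (horizontal, log axis) for the 141 members with RPKM, coloured by coding length in nt. At a given raw CPM the short genes (dark) lie above the long ones (light), and Bra038907 at 8094 RPKM is the highest point.

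The members' median coding length was 1185 nt (quartiles 786 and 1746 nt), beside 1200 nt (708 and 1815 nt) for all Bra genes at 50 raw CPM or more in fertile buds. The 290 genes at 1% or less had a median of 1095 nt and the 188 genes at 10% to 50% one of 1425 nt. Genes shorter than 600 nt made up 15.6% of the members, 29.7% of the genes at 1% or less, 10.6% of those at 10% to 50% and 19.6% of all Bra genes at 50 raw CPM or more. These shares describe genes, which are not replicates, and were not tested.

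The extremes of length bracketed a wide range. Bra033058, the longest at 8118 nt, had 0.197, 0.286 and 0.172 RPKM in sterile libraries and 16.9, 12.4 and 14.7 RPKM in fertile libraries, the lowest length-scaled levels of the set by their group means. Bra037213, of 5733 nt, had 1.72, 1.89 and 1.34 RPKM in sterile libraries and 31.8, 32.7 and 30.5 in fertile libraries. At the short end, Bra005945 of 240 nt had 23.9, 19.3 and 32.6 RPKM in sterile libraries, against 481.5, 456.8 and 505.1 in fertile libraries.

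Every member had between 14 and 5437 counts in each sterile library, where the rule itself sets a lower bound on the sterile mean. For 132 of the 142 genes the 95% interval of the sterile to fertile ratio (exact Clopper-Pearson on pooled counts, counting error only) lay wholly between 1% and 10%. For 5 genes it crossed the lower limit and for 5 the upper one. The median sterile level of 4.78 raw CPM lay below the median of 6.83 raw CPM that all 38112 detected Bra genes had in sterile buds, and 50 of the 142 stood above that median. In fertile buds the median of all detected Bra genes was 6.87 raw CPM.

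At the lower edge, the 4 members with the lowest remaining share were Bra012382, Bra024610, Bra019283 and Bra017861. Bra012382 had 18, 23 and 30 counts in sterile libraries and 1980, 1941 and 2427 in fertile libraries, or 1.04% of its fertile CPM. Bra024610 kept 1.06%, with 4.33, 3.06 and 6.31 raw CPM in sterile libraries against 420.8, 419.4 and 456.5 in fertile libraries, and its sterile CV of 35.8% was the highest of the set. Bra019283 kept 1.097%, with 43, 40 and 64 counts in sterile libraries and 3866, 3891 and 4685 in fertile libraries. Just below 1% lay Bra030850 and Bra012383, both at 0.98%, and Bra025794 at 0.966%, the last with 9.72, 9.16 and 12.7 raw CPM in sterile libraries and 1089, 1134 and 1048 in fertile libraries.

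At the upper edge, Bra033714 kept 9.85% of its fertile level, with 16.8, 16.4 and 13.98 raw CPM in sterile libraries and 168.4, 158.7 and 151.8 in fertile libraries. Bra024619 kept 9.70%, Bra001110 kept 9.68% and Bra029272 kept 9.47%. Just above the limit lay Bra023127 at 10.1%, Bra028848 and Bra020712, both at 10.4%. The counting intervals of these 4 members all reached past 10%.

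Sterile libraries varied more than fertile ones for most members. The median CV was 10.4% among sterile libraries (0.927% to 35.8%) and 3.96% among fertile libraries (0.313% to 25.1%), and 126 of the 142 genes had the larger CV in sterile buds. Sterile counts were lower, and sampling of reads alone gives a median CV of 8.01% in sterile and 1.68% in fertile libraries. The sterile CV was above its sampling value for 95 genes, and the fertile CV was above its own for 133. After Bra024610, the highest sterile CVs were those of Bra017755 (0.439, 0.681 and 0.833 raw CPM in sterile libraries, 58.0, 54.7 and 52.4 in fertile libraries) and Bra023053 (1.88, 2.26 and 3.30 in sterile libraries, 98.7, 101.0 and 105.8 in fertile libraries). In each of these 3 genes the third sterile library was the highest.

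Among fertile libraries 3 members stood out for their spread. Bra013040 had 16.7, 14.8 and 14.5 raw CPM in sterile libraries, which were close together, and 188.9, 135.6 and 227.8 in fertile libraries, a CV of 25.1%. Bra033058 had 1.60, 2.32 and 1.40 raw CPM in sterile libraries and 137.0, 100.9 and 119.0 in fertile libraries. Bra020395 had 2.41, 3.31 and 2.92 raw CPM in sterile libraries and 109.2, 124.1 and 97.1 in fertile libraries. None of these ranges brought the groups near each other.

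Members were more often highest in the third sterile library (replicate 3) than in the other ones. Of 142 genes, 80 were highest in the third sterile library, 38 in the first and 24 in the second, and 79 were lowest in the second. The order replicate 2, replicate 1, replicate 3, from low to high, was shown by 57 genes (40.1%), and each of the other 5 orders by 10 to 23. Their summed level was 1433, 1328 and 1518 raw CPM in the sterile libraries. The median deviation from a gene's own sterile mean was 0.08 log2 units in the third library and -0.08 in the second. Among all detected Bra genes with 10 counts or more in each sterile library, 28.8% were highest in the third library and 38.3% in the second. The Bra genes at 50 raw CPM or more in fertile buds, from which the members came, did not show that order. With the same minimum of 10 counts, 37.2% of them were highest in the first library, 29.3% in the second and 33.5% in the third. With TMM-scaled values in place of raw CPM, 83 members were highest in the third library.

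This order of the sterile libraries changed with the depth of the reduction. Of the members that kept 1% to 2% of the fertile level, 22 of 31 were highest in the third sterile library, with a median deviation of 0.16 log2 units. Of those that kept 2% to 5%, 38 of 66 were, with a median of 0.08, and of those that kept 5% to 10%, 20 of 45 were, with a median of 0.03. Outside the range the median deviation kept to this gradient, while the share highest in the third library rose no further below 1%. That share was 65.3% at 0.1% to 1% and 71.0% at 1% to 2%. In genes at 0.1% to 1%, 32 of the 49 with at least 10 counts in each sterile library were highest in the third, with a median of 0.25, and 47 further genes were too low to be placed. In genes at 10% to 20% the count was 21 of 66 and the median was within 0.01 of 0, and at 20% to 50% it was 26 of 122 and -0.03. The median CV among sterile libraries was 24.1%, 16.2%, 10.1%, 7.97%, 5.93% and 4.93% in these bands, from the lowest remaining share to the highest. Sterile counts were higher in each next band, and sampling of reads alone gives median CVs of 18.6%, 13.2%, 8.78%, 6.65%, 5.0004% and 3.11%, which fall in the same way. The genes of a band share their libraries, so these counts describe 3 libraries and carry no test, and what sets the third library apart was not tested. It also held the most counts of the sterile libraries, 33615379, and the part of that in the order was not tested.

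**Figure D4:**
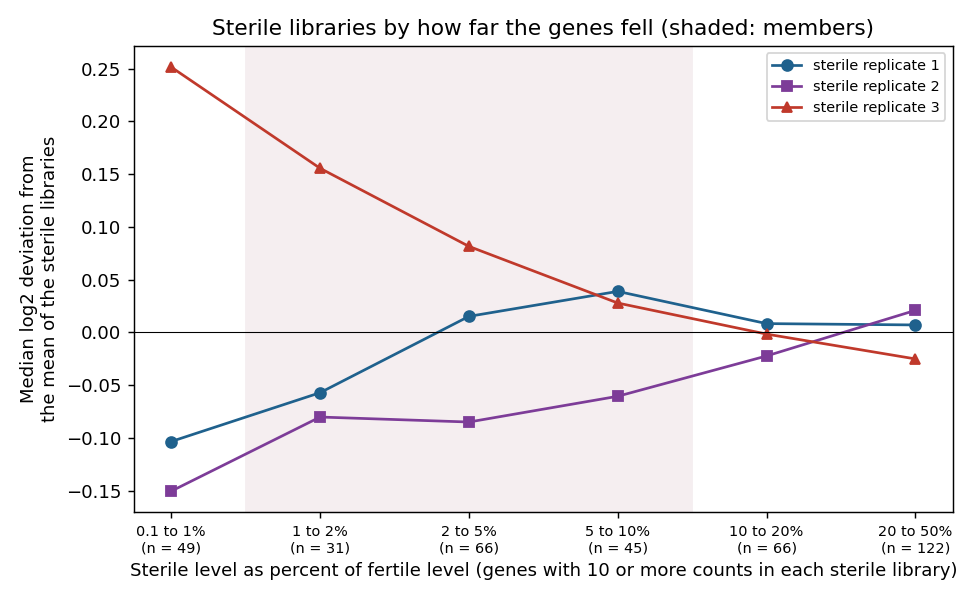
Median log2 deviation of each sterile library from the mean log2 level of the 3 sterile libraries (vertical), for Bra genes at 50 raw CPM or more in fertile buds grouped by the percentage of the fertile level they kept (horizontal, n genes per band, members shaded). The third sterile library lies at 0.25 in the band at 0.1% to 1% and at -0.03 in the band at 20% to 50%, and crosses the other libraries between.

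Fertile libraries were closer to each other. Of the members, 60 were highest in the third fertile library, 50 in the first and 32 in the second, with median deviations of 0.02, 0.01 and -0.02 log2 units. Their summed level was 40476, 40304 and 40594 raw CPM in the fertile libraries.

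Few members carried neighbouring identifier numbers, but a larger share of members did than of all Bra identifiers. Of the 142, 6 had a number next to that of another member, forming 3 pairs, a share of 4.23% beside 0.692% of all Bra identifiers with a member next to them. A neighbour at 1% or less of its fertile level was found for 5 members (3.52%), beside 565 of all Bra identifiers (1.38%). The shares among Bra genes at 50 raw CPM or more in fertile buds were not counted, and no difference was tested. No source used here says whether consecutive numbers are neighbours in the genome, and near-identical copies could have shared reads.

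The members of a pair did not keep the same share, and their levels are given in RPKM since their lengths differ. Bra002476 had 2.79, 2.42 and 3.11 RPKM in sterile libraries and 84.3, 77.9 and 85.2 in fertile libraries, and kept 3.37% of its fertile CPM. Bra002477 had 6.39, 4.94 and 7.31 RPKM in sterile libraries and 90.1, 84.5 and 85.5 in fertile libraries, and kept 7.17%. The ranges of the pair thus overlapped in fertile buds and lay apart in sterile buds.

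Bra015486 had 4.51, 4.14 and 4.67 RPKM in sterile libraries and 53.8, 55.4 and 53.2 in fertile libraries, and kept 8.21%. Its neighbour Bra015487 had 10.6, 7.33 and 10.8 RPKM in sterile libraries and 418.9, 448.0 and 428.6 in fertile libraries, and kept 2.21%. The gene that was higher in fertile buds was here the more reduced one. In the remaining pair, Bra031319 had 19.8, 17.3 and 17.8 RPKM in sterile libraries and 298.2, 288.0 and 316.0 in fertile libraries, and kept 6.08%. Bra031320 had 3.12, 2.999 and 3.27 RPKM in sterile libraries and 99.3, 93.0 and 99.5 in fertile libraries, and kept 3.22%.

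Bra012382, the member nearest the lower limit, stood next to Bra012383, which lay just outside it. Bra012383 had 2.41, 2.72 and 4.82 raw CPM in sterile libraries and 339.8, 332.1 and 344.8 in fertile libraries. Both were highest in the third sterile library.

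Fitted across all genes with edgeR's quasi-likelihood test, all 142 members were among the genes called lower in sterile buds at a Benjamini-Hochberg adjusted p under 0.05, as were 33.3% of the 33150 genes tested. All 142 were also at least 10-fold lower in the fit, as were 7.83% of genes tested. Some members passed the other limit in the fit, as Bra012382 did at a log2 fold change of -6.88, more than 100-fold lower. The range was set on raw CPM, and with TMM-scaled CPM 135 of the 142 stayed inside it. With DESeq2 all 142 were called lower and all 142 at least 10-fold lower, as were 31.1% and 7.89% of genes tested. With limma on log2(RPKM + 1) all 141 were called lower, beside 19.9% of genes tested, and 133 at least 10-fold lower, beside 3.45%. The rule used the same contrast and nothing is read from these counts. The log2 fold changes of the members ran from -6.88 to -3.65, with a median of -5.16, where the median of all Bra genes tested was 0.01. Their SE from the spread between libraries was 0.02 to 0.31. Scaling to library size alone, which matches raw CPM, gave a median of -4.85 for the members and 0.31 for all Bra genes tested. The change of scaling shifts all genes by the same amount.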

How the data were processed

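RNA sequencing libraries of 3 sterile and 3 fertile bud samples were grouped by their genotype label, and table columns were matched through sample titles. The authors deposited raw read counts per identifier and RPKM, per the file headers. Dividing count by RPKM gave the same length in every library. Among Bra genes above a minimum count in every library, 100% of the rounded lengths were multiples of 3, which marks them as coding lengths. Per the submitters' processing notes, Bowtie2 2.0.6 and TopHat2 2.0.9 were used, with no role stated. The build, the gene annotation, the read counter and its use of strand were not given in the sources used here. Reads of overlapping or near-identical genes may therefore be mixed. Raw CPM is the count divided by the column sum over all 43354 identifiers. A RefSeq gene table (51589 genes) matched 1 identifier and no member, so lists of anther, pollen, other floral, green tissue and stress genes had 0 members to describe, and no sequence could be shown.

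Counts were fitted in R 4.3.3 with edgeR 4.0.16 (filterByExpr, TMM factors of 1.102 to 1.126 in sterile and 0.893 to 0.905 in fertile libraries, glmQLFit and glmQLFTest without replicate number). Deposited RPKM was fitted with limma 3.58.1 on log2(RPKM + 1), with RPKM of at least 1 in 3 libraries, which understates changes of low genes. DESeq2 1.42.0 was an alternative. The fits were tested on simulated counts, with as many genes raised as lowered and no difference in scaling between the groups. The simulation therefore did not test the difference in TMM factors between the groups. For limma it gave all genes the same length, unlike the deposited RPKM. Its outcome is not given here, and no result rests on it. The variance between libraries of one group was 2.95 to 4.74 times that of sampling alone, so none was counted as a duplicate. Genes named are the 8 most abundant members, 6 more by fertile RPKM, 4 at each limit of the range, the 3 just outside each limit, the 3 most variable per group, the 2 longest and 2 shortest, and runs of consecutive identifiers. The members, lists and rules were chosen with earlier results of these data known.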

Additional observations from a re-analysis of the deposited data

How the results depend on the processing

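The number of genes in the range was 170 with TMM-scaled CPM (135 of them among the 142), 236 with fertile raw CPM of at least 25 and 90 with at least 100, where the wider or narrower level sets the count. Without 1 library at a time it was 140 to 148 genes, of which 138 to 142 were members. All members tested were called lower under every alternative run, 141 or 142 of them. At least 10-fold falls numbered 133 on log2(RPKM + 1), where the pseudocount shrinks low levels, and 140 on log2(RPKM + 0.1). The median log2 fold change of members was -4.97 with upper-quartile factors, -4.85 with library size alone, -4.82 on log2(RPKM + 0.1) and -4.45 on log2(RPKM + 1) with or without the low filter, and -5.19 to -5.13 without 1 library at a time. The members' share of counts, sterile minus fertile, was -3.90 percentage points, -4.01 over Bra counts alone, -3.93 of summed RPKM, -2.20 without the 10 most abundant members, and -3.91 to -3.90 without 1 library at a time. With a replicate block all 142 members were called and the median was -5.16. Deviations of libraries that share a number correlated at 0.08, -0.16 and 0.34, not all above 0.1, and the numbers were not treated as pairs. All 40 named genes kept direction and call in 560 of 560 pairs of a gene and an alternative fit. These genes were picked for their fall on the same contrast, so that outcome was nearly fixed beforehand. The counts of library order under TMM scaling and of 10-fold calls were added after seeing the data.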

Other observations

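Of the 112 identifiers outside the Bra set at 50 raw CPM or more in fertile buds, 5 met the same limits. Novel00278 was the most abundant, with 11.7, 10.7 and 13.7 raw CPM in sterile libraries against 661.4, 624.9 and 692.5 in fertile libraries, or 1.82% of its fertile level. Novel00423 kept 3.43%, with 8.18, 8.63 and 10.1 raw CPM in sterile libraries and 263.8, 243.5 and 275.9 in fertile libraries. Novel00240 kept 3.10%, Novel00112 kept 2.48% and Novel01383 kept 1.51%. The third sterile library was the highest for all of these except Novel01383. No source used here says how such models were built.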
